A study of Homo sapiens with 5 samples.

Results

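A set of 10 hypoxia-inducible genes outside glycolysis was followed: ANGPTL4, CA9, VEGFA, ADM, BNIP3, BNIP3L, NDRG1, ANKRD37, EGLN3 and PDK1. They were taken by name from the 57773 rows of the deposited expression table, and all 10 were found, each in 1 row. Their Ensembl identifiers in the table are ENSG00000167772 (ANGPTL4), ENSG00000107159 (CA9), ENSG00000112715 (VEGFA), ENSG00000148926 (ADM), ENSG00000176171 (BNIP3), ENSG00000104765 (BNIP3L), ENSG00000104419 (NDRG1), ENSG00000186352 (ANKRD37), ENSG00000129521 (EGLN3) and ENSG00000152256 (PDK1). The cells were HCT116, a human colorectal carcinoma line, with a Dicer knockout according to the series design. Dicer cuts precursor hairpins into mature microRNAs. All 5 libraries share that background, and whether it is 1 clone is not given in the sources used here. The 5 groups, 1 library each, were cells given a negative control, let-7a in a native or a methylated form (the latter labelled 19A) or miR-17 in a native or a methylated form (labelled 13A). The series asked how methylated microRNAs affect the decay of target mRNAs. With single libraries, differences have no replicate check and were not tested. Values are TPM, a share of each library scaled for transcript length, rounded to 1 decimal in the deposited table, so the sequencing depth is unknown.

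Cells that lack oxygen stabilise the alpha subunits of hypoxia-inducible factor (HIF), which otherwise are hydroxylated by EGLN enzymes, bound by VHL and degraded. HIF then binds a short core motif, ACGTG or GCGTG, near genes that help a cell live with little oxygen. The genes described here serve secretion and vessel growth (VEGFA, ADM, ANGPTL4), pH control (CA9), turnover of mitochondria (BNIP3, BNIP3L), restraint of mitochondrial pyruvate use (PDK1), feedback on HIF itself (EGLN3) and stress or less defined roles (NDRG1, ANKRD37). In tumours they serve as a readout of HIF activity. HIF is controlled mostly as a protein, which was not measured.

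The sequences of the transfected oligonucleotides are not given in the labels. The natural human forms in RefSeq (GRCh38.p14) are shown because their seed, bases 2 to 8 in capitals, sets which mRNAs can pair with them:
let-7a-5p: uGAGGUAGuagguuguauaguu
miR-17-5p: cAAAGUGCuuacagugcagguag
The seeds differ, and the bases at positions 19 of let-7a-5p and 13 of miR-17-5p, the numbers in the labels, are both A. A let-7a site was searched as CTACCTC or TACCTCA, and a miR-17 site as GCACTTT or CACTTTA, in the longest 3′ UTR that GENCODE 29 annotates for each gene. None of the 10 genes had a let-7a site there, nor in any other annotated 3′ UTR of at least 50 bases. Among the 12022 genes searched, 18.0% had one. A miR-17 site was present in 3 of the 10, namely VEGFA, BNIP3L and PDK1, against 31.5% of the searched genes. BNIP3L had 2 matches, which are not shown, while BNIP3 and EGLN3 had 1 each in another annotated 3′ UTR only. The match of VEGFA lay at bases 177 to 183 of a 1925-base 3′ UTR, and that of PDK1 at bases 7646 to 7653 of 12700. Both are shown with flanking bases, the site in capitals, where the last A of PDK1 faces base 1 of miR-17-5p and does not pair:
VEGFA: ctctgcgcagaGCACTTTgggtccggaggg
PDK1: cgaaagctctgGCACTTTAtagcagtggtg
A match is a description of the sequence and does not show that the microRNA acts there.

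Promoter windows of 300 bases (250 before to 50 after the start, RefSeq, GRCh38.p14) were at hand for 7 of the 10 genes, and VEGFA, BNIP3L and NDRG1 were not matched. ACGTG, read on both strands, was in a window of 5 of these 7 (ANGPTL4, CA9, BNIP3, ANKRD37 and PDK1), against 21.4% of 35116 windows. GCGTG was in 2 of the 7 (ADM and BNIP3), against 36.5% of windows. The 7 genes had 8 windows, since PDK1 had 2, of which 1 held neither motif. A gene was counted if any of its windows held the motif, so counts of genes and shares of windows are unlike measures. EGLN3 had neither in its window, which says nothing about the rest of its locus. The genes with the largest ratio (CA9), with the most matches (BNIP3) and with a different order of libraries (ANKRD37) are shown, motifs on either strand in capitals. In BNIP3 and ANKRD37, CACGTG holds ACGTG on both strands and was counted as 1 place.
CA9, chr9:35673678-35673977, plus strand: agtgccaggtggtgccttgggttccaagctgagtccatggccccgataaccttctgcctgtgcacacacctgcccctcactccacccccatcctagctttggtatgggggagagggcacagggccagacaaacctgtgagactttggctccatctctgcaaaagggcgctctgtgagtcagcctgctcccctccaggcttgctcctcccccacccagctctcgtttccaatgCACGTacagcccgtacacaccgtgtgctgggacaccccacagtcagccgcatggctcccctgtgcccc
BNIP3, chr10:131981874-131982173, minus strand: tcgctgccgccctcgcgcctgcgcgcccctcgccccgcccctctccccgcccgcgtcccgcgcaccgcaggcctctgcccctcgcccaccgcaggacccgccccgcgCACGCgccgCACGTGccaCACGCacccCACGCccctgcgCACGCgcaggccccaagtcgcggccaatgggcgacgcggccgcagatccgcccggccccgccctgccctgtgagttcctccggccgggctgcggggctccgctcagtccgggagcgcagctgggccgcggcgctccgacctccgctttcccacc
ANKRD37, chr4:185396591-185396890, plus strand: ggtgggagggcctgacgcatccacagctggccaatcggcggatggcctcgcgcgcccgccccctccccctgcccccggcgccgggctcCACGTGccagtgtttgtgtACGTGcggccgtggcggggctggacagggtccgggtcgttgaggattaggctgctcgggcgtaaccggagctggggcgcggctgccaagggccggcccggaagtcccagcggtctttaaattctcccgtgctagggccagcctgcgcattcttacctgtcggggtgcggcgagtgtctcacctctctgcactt

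The libraries were alike in broad terms. Between 14173 and 14396 genes reached 1 TPM, mitochondrially encoded transcripts held 9.36% to 12.6% of the TPM and DICER1 had 11.2 to 15.9 TPM. The negative control had the highest mitochondrial share, and methylated let-7a the next (11.7%). In these 2 libraries the summed level of the 10 genes was highest too, whereas native miR-17, with the next share (10.9%), had the lowest sum. With these transcripts left out, the median differences of the 10 genes from the control were -1.0 and -0.51 for native and methylated let-7a and -1.19 and -1.13 for native and methylated miR-17, at least as far from 0 as with them. Of 11 epithelial colon markers 10 passed the filter, with EPCAM at 524.4 to 618.8 TPM and VIL1 listed at 0 in every library. Fibroblast, endothelial and blood markers summed to 11.8 to 17.2, 1.0 to 2.4 and 6.1 to 9.4 TPM, with DCN and PTPRC listed at 0 throughout.

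The summed level of the 10 genes was 695.4 TPM in the negative control, 519.1 with methylated let-7a, 354.7 with native let-7a, 319.5 with methylated miR-17 and 307.4 with native miR-17. The negative control was the highest of the 5 libraries for 9 of the 10 genes, against 26.5% of the 14177 genes whose mean over libraries was 1 TPM or more. It was followed by methylated let-7a, with the other 3 libraries below, for 9 as well, against 9.90% of genes. For 4 genes (ANGPTL4, CA9, BNIP3 and EGLN3) the control was at least 2-fold above native let-7a and each miR-17 library in TPM + 1, against 0.317% of genes. Less RNA per cell and fewer cells with that RNA cannot be told apart in such bulk samples. Methylated let-7a stood above native let-7a and above both miR-17 libraries for all 10, a pattern that 20.4% of genes showed and that does not involve the control. Both miR-17 libraries lay below both let-7a libraries for 7 of the 10, against 29.8% of genes. ADM, BNIP3 and ANKRD37 were the exceptions. All 10 genes passed this filter, CA9 only through the control and methylated let-7a.

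**Figure D1:**
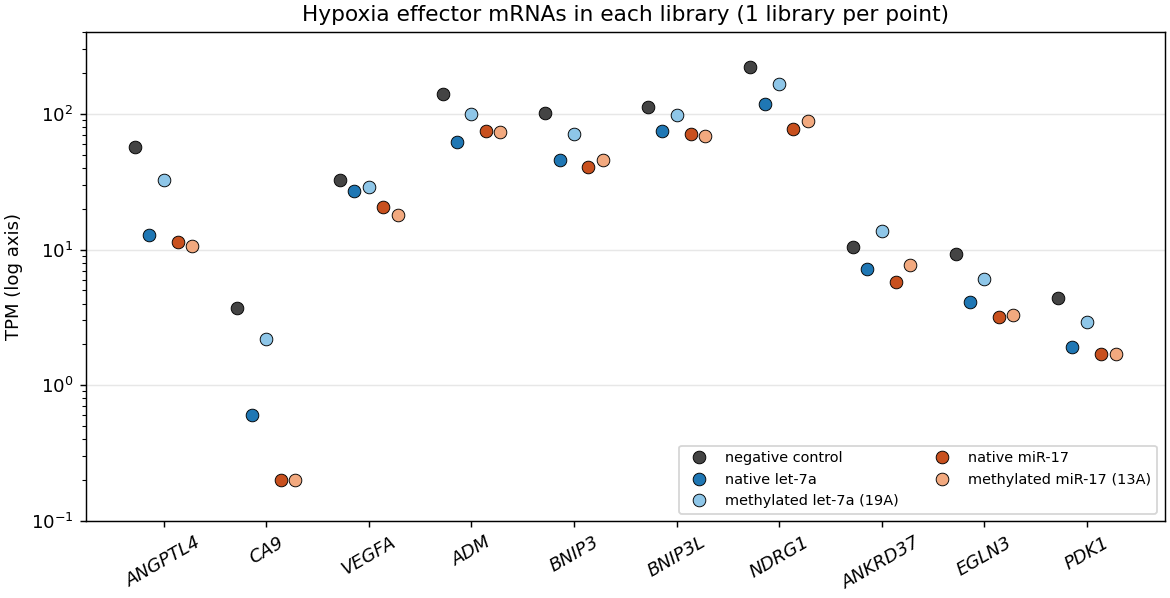
TPM (log axis) of the 10 genes, 1 point per library. The negative control is the highest point for every gene but ANKRD37, methylated let-7a lies above native let-7a and both miR-17 libraries for all 10, and CA9 spans the widest range, from 0.2 to 3.7 TPM.

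Among the secreted factors, ANGPTL4 differed most. This inhibitor of lipoprotein lipase had 57.5 TPM in the negative control, 12.7 and 32.8 with the native and methylated forms of let-7a, and 11.3 and 10.7 with those of miR-17. Native let-7a and both miR-17 libraries were thus close to each other and far below the control, with methylated let-7a between. ANGPTL4 was 4.27-fold lower with native let-7a and 4.76-fold and 5.00-fold lower with native and methylated miR-17 than in the control, in TPM + 1. Only 0.0917% of all genes had a lower difference with methylated miR-17.

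ADM encodes adrenomedullin, a peptide that widens vessels. It had 140.9 TPM in the control library, 61.8 and 99.1 with the native and methylated forms of let-7a, and 75.2 and 73.5 with those of miR-17. ADM was the 1 gene of the 10 that was lowest with native let-7a. It was 2.26-fold lower there than in the control, and 1.86-fold and 1.90-fold lower with native and methylated miR-17.

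VEGFA, the main growth factor for vessels, differed little with let-7a. It had 32.6 TPM in the control library, 27.2 and 28.7 with the native and methylated forms of let-7a, and 20.6 and 18.0 with those of miR-17. The let-7a libraries differed from each other by 1.5 TPM and the miR-17 libraries were the 2 lowest. The log2 differences from the control were -0.25 and -0.18 with native and methylated let-7a, and -0.64 and -0.82 with native and methylated miR-17. In native let-7a 16.6% of all genes had a lower difference, which places VEGFA within the bulk of genes there.

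CA9, a membrane carbonic anhydrase that serves pH control and is a textbook marker of hypoxic tumour cells, was low throughout. Its level was 3.7 TPM in the control library, 0.6 and 2.2 with the native and methylated forms of let-7a, and 0.2 with each form of miR-17. The plain ratio of control to either miR-17 library was 18.5, and rounding to 1 decimal alone allows 14.6 to 25. With native let-7a the ratio was 6.17, between 5.62 and 6.82 given the rounding. On the TPM + 1 scale these shrink to 3.92-fold and 2.94-fold, since the added 1 outweighs such small values.

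BNIP3 and BNIP3L are related receptors on the outer mitochondrial membrane that mark mitochondria for autophagy. BNIP3 had 101.8 TPM in the control library, 45.7 and 70.5 with the native and methylated forms of let-7a, and 40.6 and 46.0 with those of miR-17. BNIP3L had 112.3, 74.7, 98.0, 70.9 and 69.1 TPM in the same order of libraries. Both genes were at like levels in the control, but BNIP3 was more than 2-fold below it in 3 libraries and BNIP3L in none. With native miR-17 the log2 difference from the control was -1.31 for BNIP3 and -0.66 for BNIP3L. BNIP3P1, a processed copy of BNIP3, was listed at 35.2 TPM in the control, at 15.8 and 24.2 TPM for the native and methylated let-7a libraries, and at 10.7 and 14 TPM for those of miR-17. How the authors divided reads between near-identical sequences is not known, so the BNIP3 level itself is uncertain. Summing both, a step chosen after the data were seen, gave -1.40 for native miR-17 and -1.14 for native let-7a, against -1.31 and -1.14 for BNIP3 alone.

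PDK1, the kinase that inactivates pyruvate dehydrogenase and so keeps pyruvate out of mitochondria, had 4.4 TPM in the control library, 1.9 and 2.9 with the native and methylated forms of let-7a, and 1.7 with each form of miR-17. It was 1.86-fold lower with native let-7a and 2.00-fold lower with either miR-17 form in TPM + 1, the latter at the 2-fold limit itself. EGLN3, a prolyl hydroxylase that acts back on HIF, had 9.2 TPM in the control library, 4.1 and 6.1 with the native and methylated forms of let-7a, and 3.2 and 3.3 with those of miR-17. It was 2.00-fold lower with native let-7a, also at the limit, and 2.43-fold and 2.37-fold lower with native and methylated miR-17. At such levels the rounding of the table can move a gene across that limit.

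NDRG1, a stress-induced gene linked to differentiation and iron, was the most abundant of the 10 in the control. It had 222.6 TPM there, 118.8 and 165.0 with the native and methylated forms of let-7a, and 77.9 and 89.3 with those of miR-17. Native miR-17 was 1.52-fold below native let-7a in TPM + 1, the widest such difference of the 10 on that scale, while the plain ratio was wider for CA9 (0.6 against 0.2 TPM). ANKRD37, a small ankyrin-repeat protein, had 10.4 TPM in the control library, 7.2 and 13.8 with the native and methylated forms of let-7a, and 5.8 and 7.7 with those of miR-17. It was the 1 gene higher with methylated let-7a than in the control, and it was also higher with methylated than with native miR-17.

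Against the control, then, all 10 genes were lower with native let-7a, where 47.9% of all genes were lower and 49.9% higher. At least 2-fold lower were 5 of them (ANGPTL4, CA9, ADM, BNIP3 and EGLN3), against 1.19% of all genes, and the median log2 difference of the 10 was -0.95, against 0.0 for all genes. With native miR-17 all 10 were again lower, against 46.5% of genes. At least 2-fold lower were 6 of them (ANGPTL4, CA9, BNIP3, NDRG1, EGLN3 and PDK1), against 1.73% of genes, and the median was -1.14, against 0.02 for all genes. Methylated miR-17 had all 10 lower and 0 higher, against 56.3% and 42.1% of genes, and the 6 genes named for native miR-17 at least 2-fold lower, against 2.38% (1.32% were as much higher), with a median of -1.06 (-0.06 for all genes). With methylated let-7a 9 of the 10 were lower, against 56.1% of genes, and ANKRD37 was higher, against 41.0%. None was at least 2-fold lower, against 0.980% of genes, and the median was -0.49 (-0.04 for all genes). With a pseudocount of 5 in place of 1, 3 genes were at least 2-fold lower with native let-7a, against 0.296% of all genes. There were 3 with native and 3 with methylated miR-17, against 0.585% and 0.712%. With median-ratio size factors the shares of all genes lower were 50.1% and 51.1% for native and methylated let-7a. They were 50.3% and 49.7% for native and methylated miR-17. The counts of the 10 genes lower and higher stayed as above. Those at least 2-fold lower stayed too, except with methylated miR-17. There they numbered 5, against 1.89% of all genes, since PDK1 lay at -0.95. CA9 is in these counts although it passed the filter only through the control and methylated let-7a. A filter of a mean of at least 5 TPM left 8 genes, without CA9 and PDK1. Of these, 4 were at least 2-fold lower with native let-7a, 4 with native and 4 with methylated miR-17. The shares of all genes were then 0.566%, 1.34% and 1.76%. The 4 comparisons with the control share that library, so a value peculiar to it would enter all of them.

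**Figure D2:**
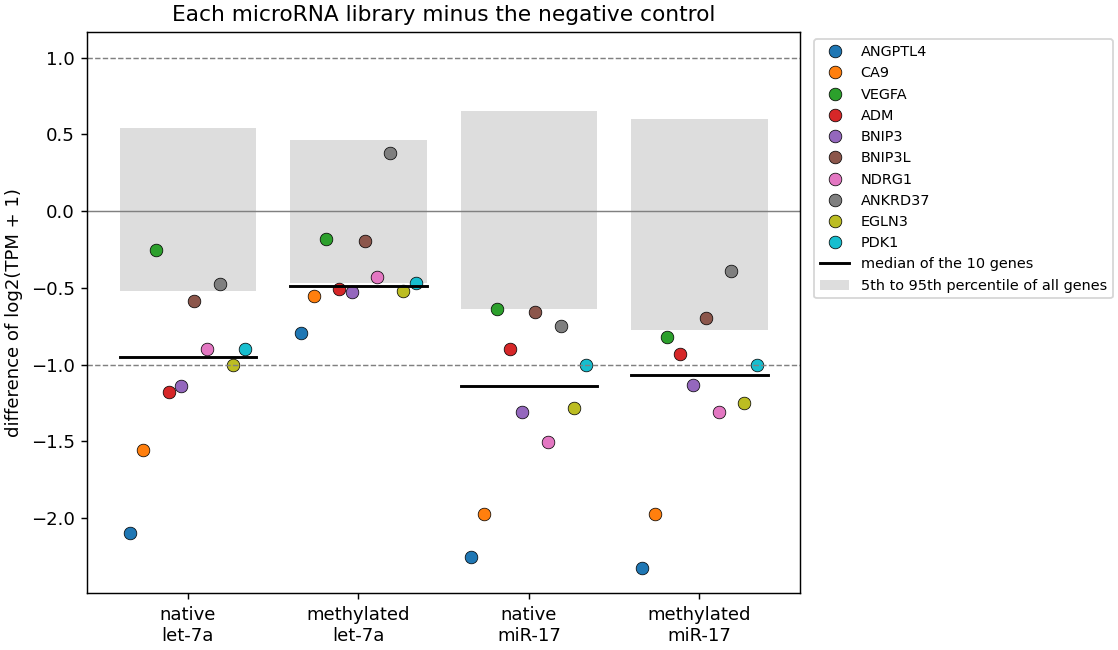
Difference of log2(TPM + 1) between each microRNA library and the negative control, 1 point per gene, with the median of the 10 genes as a black line and the 5th to 95th percentile of all genes as a grey bar. Dashed lines mark 2-fold. The medians are -0.95, -0.49, -1.14 and -1.06, and ANGPTL4 and CA9 are the 2 lowest points in each library.

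The comparisons without the control show where the 4 microRNA libraries differ among themselves. Methylated let-7a was higher than native let-7a for all 10 genes, where 39.8% of all genes were higher and 57.1% lower. ANGPTL4 (32.8 against 12.7 TPM) and CA9 (2.2 against 0.6 TPM) were at least 2-fold higher in TPM + 1, which 0.952% of all genes were. CA9 lay at the limit itself, where the rounding decides. It also passed the filter of 1 TPM only through the control and methylated let-7a, so its place in this count is no support. The median log2 difference was 0.55, against -0.03 for all genes. VEGFA was the least different, at 0.07, and ANKRD37 followed CA9 at 0.85. Expressed as a share of the log2 distance from native let-7a to the control, the methylated library lay at a median of 55.6%, from 29.6% for VEGFA to 179% for ANKRD37. The other 8 genes lay between 47.7% and 66.5%. Both ends of that distance are single libraries.

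Methylated and native miR-17 lay close together for these genes. Of the 10, 4 were lower with the methylated form, 4 higher and 2 (CA9 and PDK1) equal at the precision of the table, whereas 69.0% of all genes were lower and 28.4% higher. No gene of the 10 was at least 2-fold different in either direction (0.995% of all genes were lower and 0.684% higher by that much). The median difference was 0.0, against -0.09 for all genes. This tally depends on the scaling. With median-ratio size factors 9 of the 10 were higher with the methylated form and 1, VEGFA (-0.09), lower, against 50.1% and 49.7% of all genes. Without mitochondrially encoded genes 6 were lower and 4 higher, against 74.6% and 25.3%. The furthest were ANKRD37 at 0.36 (7.7 against 5.8 TPM) and VEGFA at -0.19 (18.0 against 20.6 TPM).

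Native miR-17 was lower than native let-7a for 9 of the 10 genes, against 46.8% of all genes, with a median of -0.22. None was at least 2-fold lower or higher, against 1.45% and 1.30% of genes. ADM was the 1 gene higher, as were 51.3% of genes, at 0.28, and NDRG1 the lowest, at -0.60. Methylated miR-17 was lower than methylated let-7a for all 10, against 53.6% of genes (44.5% were higher), with a median of -0.68. ANGPTL4 (10.7 against 32.8 TPM) and CA9 (0.2 against 2.2 TPM) were at least 2-fold lower, which 1.78% of genes were. CA9 passed the filter only through the control and methylated let-7a, the latter being 1 side of this comparison. The let-7a and miR-17 levels were therefore further apart between the methylated forms than between the native forms for every gene of the 10 by these single libraries. The share of all genes with that pattern was not counted, so it cannot be called particular to the 10. For all genes the 5th to 95th percentile ran from -0.59 to 0.58 between native forms and from -0.68 to 0.54 between methylated forms.

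**Figure D3:**
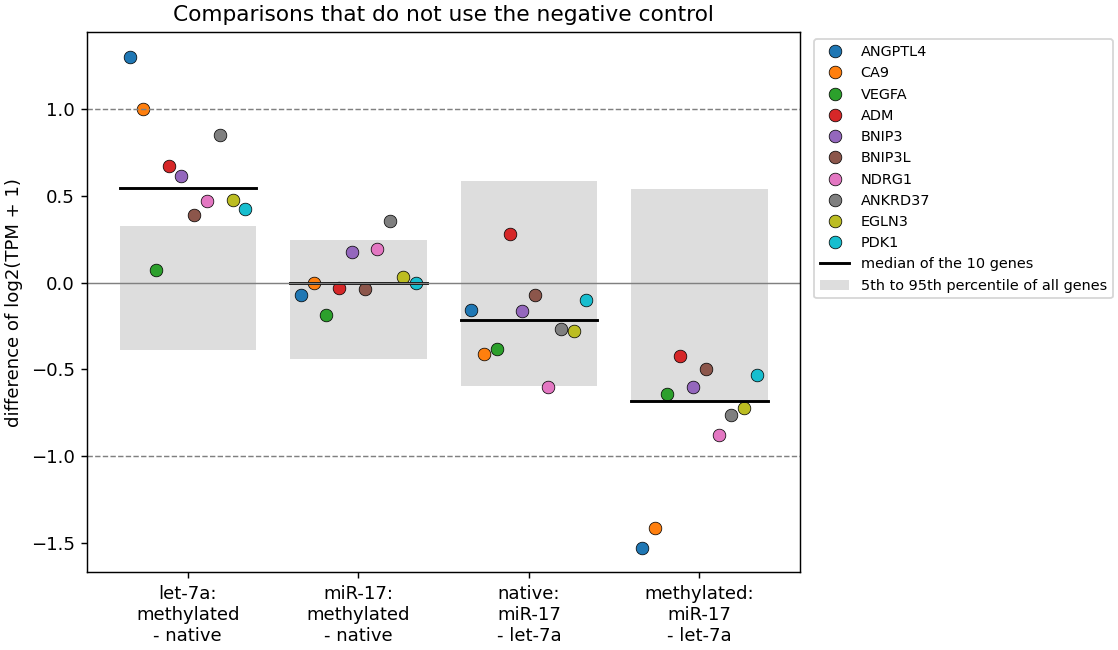
Difference of log2(TPM + 1) in the 4 comparisons that leave the control out, with the same points, lines and bars as in the plot against the control. The 10 genes lie above 0 for methylated against native let-7a (median 0.55), around 0 for methylated against native miR-17 (median 0.0) and below 0 for methylated miR-17 against methylated let-7a (median -0.68).

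Genes of the same families or complexes, chosen by kinship rather than by induction, were compared next. The 7 such groups held 37 genes that passed the filter, and in each of the 4 comparisons with the control all 37 had a higher difference than the hypoxia effector of their group (BNIP3 for the mitophagy group). Of all genes, 76.2% (VEGFA with methylated let-7a) to 99.8% (CA9 with native miR-17) also lay above the effector. The count of 37 therefore says little about kinship. With methylated let-7a, 8 of the 9 mitophagy genes had a higher difference than BNIP3L, the other effector of that group, and OPTN lay lower (-0.26 against -0.19). In the other 3 comparisons 9 of 9 were higher. Above BNIP3L lay 96.1% and 78.3% of all genes for native and methylated let-7a. The shares were 95.3% and 93.4% for native and methylated miR-17. Of the 7 other carbonic anhydrases, 0 were 2-fold lower than the control, a count that says little, since 0.980% to 2.38% of all genes were. CA2, a cytosolic form, had 17.6 TPM in the control and 25.5 with native let-7a. CA12, another membrane form that HIF can induce, was low throughout. It had 1.2 TPM in the control, 1.1 and 0.7 with native and methylated let-7a, 0.8 with native and 1.2 with methylated miR-17. VEGFB had 51.6 TPM in the control and 44.0 to 52.8 TPM in the microRNA libraries. The VEGF receptors FLT1, KDR and FLT4 were at 0.4 TPM or less in every library.

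ADM2, a peptide related to adrenomedullin, differed in the opposite direction from ADM, at 16.7 TPM in the control library, 29.6 and 22.9 with the native and methylated forms of let-7a, and 35.2 and 30.3 with those of miR-17. RAMP1, a subunit of receptors of this peptide family, had 118.3 to 146.4 TPM. The 6 other angiopoietin-like genes in the table were all at 0.4 TPM or less, so ANGPTL4 was the 1 abundant member of its family. The 9 other mitophagy receptors and adaptors, among them FUNDC1 and PINK1, had a median difference of 0.04 with native let-7a and 0.07 with native miR-17. NDRG3, the most abundant relative of NDRG1, had 57.4 TPM in the control and 49.5 to 53.0 TPM otherwise.

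The paralogs of EGLN3 and PDK1 divided. EGLN1, the main HIF hydroxylase and itself a HIF target, had 40.8 TPM in the control library, 26.9 and 35.1 with the native and methylated forms of let-7a, and 23.4 and 19.7 with those of miR-17. EGLN2, which hypoxia does not induce, had 13.9, 15.3, 13.2, 20.3 and 15.2 TPM in that order. PDK3, which HIF can also induce, had 7.5 TPM in the control, 4.5 and 6.1 TPM for the native and methylated let-7a libraries, and 5.5 and 4.7 TPM for those of miR-17. PDK2 was higher with miR-17, at 35.8 and 34.9 TPM for the native and methylated form, against 25.3 TPM in the control. PDK4 was lower with miR-17, at 2.4 and 2.3 TPM for the native and methylated form, against 4.0 TPM in the control.

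**Figure D4:**
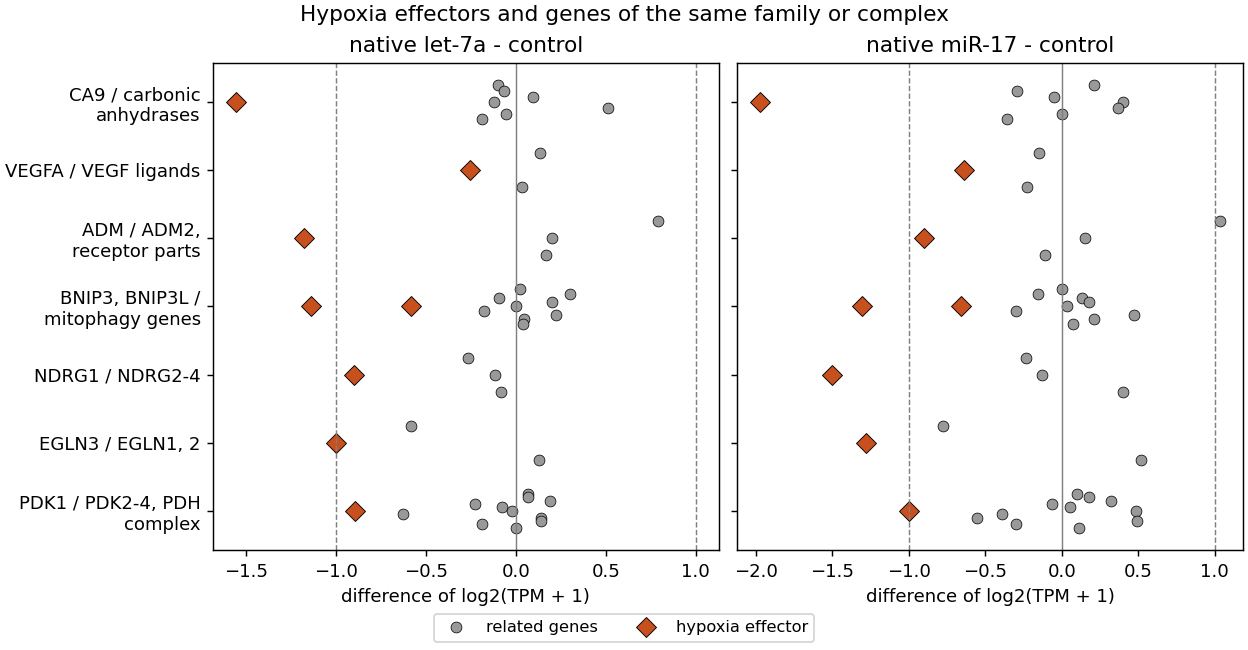
Difference of log2(TPM + 1) from the negative control in native let-7a (left) and native miR-17 (right) for hypoxia effectors (diamonds) and for genes of the same family or complex (grey circles). Each of the 37 circles lies to the right of the diamond of its row, counting BNIP3 for the mitophagy row, and EGLN1 is the circle nearest to its diamond in the EGLN row. Of all genes, 83.4% (VEGFA, left) to 99.8% (CA9, right) would also lie to the right of a diamond.

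A wider list of 35 other HIF targets outside glycolysis had 32 genes above the filter. With native let-7a 29 were lower than the control (47.9% of all genes were), 4 of the 32 by at least 2-fold (CXCR4, FUT11, LOXL2 and PLOD2, against 1.19% of genes), with a median of -0.37. With native miR-17 the median was -0.61, 29 genes were lower (46.5% of all genes), 7 were lower by 2-fold or more (1.73%) and 1 (KISS1R) higher by as much (1.69%). Methylated miR-17 had 30 lower (56.3% of all genes) and 7 by 2-fold or more (2.38%), with a median of -0.56. With methylated let-7a 27 were lower (56.1% of all genes) and 0 at least 2-fold (0.980%), at a median of -0.22. PLOD2, which hydroxylates collagen lysines, had 52.2 TPM in the control library, 18.6 and 28.5 with the native and methylated forms of let-7a, and 19.6 and 19 with those of miR-17. KISS1R, a peptide receptor, differed the other way with miR-17, at 8.8 TPM with the native form against 3.6 TPM. Methylated let-7a was above native let-7a for 25 of the 32, against 39.8% of all genes.

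The medians of the 21 glycolysis genes were -0.54 and -0.29 against the control for the native and methylated let-7a libraries, and -0.73 and -0.60 for those of miR-17. HIF subunits and oxygen sensors had medians of 0.02, -0.02, -0.07 and -0.26 in the same order, over 15 genes that include EGLN1. HIF1A, the main alpha subunit, had 161.7 TPM in the control library, 177.1 and 159.9 with the native and methylated forms of let-7a, and 109.6 and 105.5 with those of miR-17. EPAS1, another alpha subunit, had 47.9, 40.3, 44.6, 25.7 and 25.3 TPM in the same order. Both mRNAs were lower than the control with each miR-17 form. With native let-7a HIF1A was higher, and EPAS1 was lower by about as much as VEGFA (log2 differences of -0.24 and -0.25).

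Regulators other than HIF also act on some of these genes. PPAR receptors induce ANGPTL4, and 5 other PPAR targets above the filter had medians of -0.03 and -0.04 for native and methylated let-7a and 0.05 and -0.02 for native and methylated miR-17. Among them PLIN2, a lipid droplet protein, had 15.6 to 17.6 TPM, and PDK4 was lower with miR-17, as given above. ATF4, the factor of the amino acid response, can induce VEGFA, and all 9 of its listed targets above the filter were higher than the control in each of the 4 microRNA libraries, against 49.9% and 41.0% of all genes for native and methylated let-7a and 51.6% and 42.1% for native and methylated miR-17. Their medians were 0.68 and 0.17 with the native and methylated forms of let-7a, and 0.65 and 0.57 with those of miR-17. The role of either regulator was not tested.

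Across the whole table the genes whose 4 differences from the control lay nearest to the median of the 10 were ranked by root mean square distance, over 10772 other genes averaging 5 TPM or more. TMEM158 was the nearest, at 0.02 (log2), with 29.7 TPM in the control library, 15.1 and 21.2 with the native and methylated forms of let-7a, and 13.2 and 13.7 with those of miR-17. HK2 (0.07), ERO1L (0.11), LDHA (0.12), HSPA1A (0.12), ENO2 (0.13), CPOX (0.13), ITGB8 (0.14), ALDOC (0.15) and FAM47E-STBD1_1 (0.16) followed. HSPA1A has a near-identical neighbouring copy and FAM47E-STBD1 is a readthrough gene that overlaps others, so the division of reads is uncertain for both. The 10 hypoxia effectors themselves set that median, so their own distances only describe their spread. They ran from 0.08 for PDK1, which averages 2.52 TPM and is below the filter of this ranking, to 1.03 for ANGPTL4.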

How the data were processed

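Isogen was used for extraction and a TruSeq kit for stranded total RNA libraries after ribosomal RNA removal, per the labels' protocols. The authors deposited TPM values per gene, rounded to 1 decimal, and the genome build is hg19, per the submitters' processing notes. Nothing in the sources used here names the aligner, counter or annotation. Each library carries 1 column scaled to the same total, so depth and counting error are unknown and no interval is given. Differences of log2(TPM + 1) were computed in Python 3.11.15 (pandas 2.3.3) for 8 pairs of libraries over 14177 genes averaging 1 TPM or more. The pseudocount of 1 understates differences of low genes. The limit of 2-fold in TPM + 1 is a rule of size, not a test, and the code was tested on simulated data. All 10 members are named. From lists, up to 4 genes with large differences and the paralogs of members are named, and RAMP1, FUNDC1, PINK1, OPTN, PLIN2, HIF1A, EPAS1, KISS1R, BNIP3P1, markers and VEGF receptors were named beyond that rule after their values were seen. Members and lists were chosen with earlier results of these data known. Alternatives were other pseudocounts, filters and scalings. A sum of BNIP3 with BNIP3P1 was added after the data were seen.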

Additional observations from a re-analysis of the deposited data

Results flagged for a closer look

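The methyl label went with opposite signs in the let-7a and miR-17 libraries for 4 of the 10 genes, a difference that was not tested. The share of all genes with opposite signs was not counted. Between the miR-17 forms 69.0% of all genes were lower with the methylated one, at a median of -0.09. Between the let-7a forms 57.1% were lower and 39.8% higher. ANGPTL4 was higher with methylated than native let-7a (1.30, log2 of TPM + 1) and lower with methylated than native miR-17 (-0.07), a gap of 1.38 (1.375). The gap was 0.71 for ADM (0.67 and -0.03), 0.42 for BNIP3L (0.39 and -0.04) and 0.26 for VEGFA (0.07 and -0.19). For ANGPTL4, ADM and BNIP3L the small miR-17 value turned positive with median-ratio size factors (0.02, 0.07 and 0.06), so the opposite sign held for VEGFA alone under that scaling. In size the let-7a difference was the larger one for 9 of the 10 genes, VEGFA being the exception, and the share of all genes was not counted here either.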

How the results depend on the processing

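No paired analysis was possible because each group holds 1 library. For the same reason no library could be left out within a group. Of 133 values of medians and counts under alternatives, 121 kept their side of the 2-fold limit, or stayed within 1.5 times for counts. Direction was checked only for medians past that limit with the main settings, so a smaller median could change sign and still be among the 121. Most exceptions came with a pseudocount of 5, where genes at least 2-fold different numbered 3 (from 5) for native let-7a, 3 (from 6) for native miR-17 and 3 (from 6) for methylated miR-17 against the control, 1 (from 2) for methylated against native let-7a and 1 (from 2) for methylated miR-17 against methylated let-7a. The shares of all genes as much different in that direction were then 0.296%, 0.585%, 0.712%, 0.148% and 0.451%. The medians for native and methylated miR-17 were then -0.77 and -0.76. With a pseudocount of 0.1 the median for native let-7a was -1.15, and 1 gene, CA9 (-1.22), was 2-fold lower in native miR-17 than in native let-7a, against 2.38% of all genes. A filter of a mean of at least 5 TPM left 8 genes, without CA9 and PDK1, and 1 gene past 2-fold for methylated against native let-7a and 1 for methylated miR-17 against methylated let-7a, against 0.195% and 1.13% of all genes. Leaving out mitochondrially encoded genes moved the median for native let-7a to -1.0. Of 544 values of single genes, 0 reversed past the 2-fold limit, 11 lost it and 2 gained it. PDK1 in methylated miR-17 was -0.95 with size factors. Depth is unknown, so the precision of CA9, PDK1 and EGLN3 cannot be given beyond the rounding.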
